A study of Mus musculus with 14 samples.

Results

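The 2i iPSCs of the mouse clones 2B1 and 5C5 were set against each other, 1 expression array per clone. A probe set is a group of short array probes that reports 1 transcript. Members were the probe sets with exactly 1 gene symbol, on an autosome, whose deposited log2 values lay at least 1 apart (at least 2-fold) between the 2i arrays. Of 33588 such probe sets, 337 met this rule, which is 1.003% of those compared, and they stood for 292 of 17404 genes. Among them, 125 probe sets of 114 genes (0.372% of those compared) were higher in 2B1, and 212 of 178 genes (0.631%) were higher in 5C5. These differences chose the members and are given as a description. There was 1 array per clone and condition, so no difference has a replicate check, and no error or test can be given. Clone, culture and array cannot be told apart.

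The series asked which factors carry partial iPSCs, reprogrammed cells that stalled before full pluripotency, to the genuine pluripotent state, with the Ccr4-Not complex as its subject. It holds 14 arrays. Both clones are labelled female and C57BL/6; each is a single clone. The untreated partial iPSCs of 2B1 and of 5C5 were grown with serum and leukemia inhibitory factor (LIF). The 2i iPSCs of each clone are the same cells after conversion in 2i, the usual name for a medium with inhibitors of the kinases MEK and GSK3. One ESC array was of male C57BL/6 Nanog-GFP cells and the other of EBRTcH3 (male, wild-type, 129sv), both in LIF and serum, so they differ from the clones in sex and from the 2i iPSCs in medium. The fibroblasts (MEFs) came from Nanog-GFP embryos of mixed sex on C57BL/6; 12.5 dpc stands in the title and 13.5 dpc in the series text. The remaining 7 arrays were of female C57BL/6 2B1 partial iPSCs carrying an empty vector, Cnot1, Cnot2, Cnot3, Trim28, Cnot1 with Cnot2 and Cnot3 (Cnot123), or Nanog.

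Blocking MEK removes a signal through which ERK pushes pluripotent cells toward differentiation, and blocking GSK3 stabilises beta-catenin, which relieves repression of pluripotency genes by Tcf7l1. Cells kept in 2i are known for a uniform naive state and for lower DNA methylation than cells in serum. Methylation of promoters normally silences many germ cell genes outside the germ line, and imprinted genes keep parental methylation marks whose loss or gain in iPSC clones alters their transcripts.

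Both 2i arrays carried the markers of pluripotent cells. All 7 (Nanog, Zfp42, Esrrb, Sox2, Pou5f1, Dppa5a and Tfcp2l1) reached 5.42, the median log2 value of the table, on each 2i array. Their median level was 12.38 in 2i 2B1 and 12.26 in 2i 5C5, against 12.42 and 12.54 in the ESC lines and 6.50 and 5.65 in the untreated clones. Fibroblast markers were also present: 7 of 8 reached the table median on both 2i arrays, with median levels of 8.53 in 2B1 and 8.73 in 5C5, 12.67 in MEFs, and 4.80 and 4.33 in the ESC lines. On the untreated arrays 6 of 8 already did, with medians of 7.99 in 2B1 and 7.83 in 5C5. Markers of trophoblast (0 of 4) and muscle (0 of 3) did not reach it on either 2i array, while 5 of 6 endoderm markers did on both. Their median levels of 6.11 and 5.75 were not far above it. The endoderm medians were 4.93 and 4.88 in untreated 2B1 and 5C5, and 5.04 and 4.79 in the ESC lines. Neural and blood markers reached it for 2 of 4 each. In such bulk samples fewer cells of a type and less RNA per cell cannot be told apart.

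Some arrays labelled 2B1 stood nearer to the other clone. Across the 33588 probe sets the array of 2B1 with empty vector correlated at 0.964 with untreated 2B1 and at 0.977 with untreated 5C5, and that of 2B1 with Nanog at 0.964 and 0.974. The Trim28 array lay between (0.971 and 0.974), and the arrays of Cnot1, Cnot2, Cnot3 and Cnot123 were nearer to untreated 2B1 (0.977 to 0.979) than to untreated 5C5 (0.959 to 0.966). These coefficients share the probe sets and their wide range of levels, and the transduced arrays were treated as a separate set, because their value distributions differed from those of the other 7; no label states how they were normalized. The clone comparisons below use the untreated arrays, and results that bear on this are given with the transduced arrays beside them.

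The 2i iPSCs differed less than the untreated clones did. The median absolute difference over all probe sets was 0.154 between the 2i arrays, 0.232 between the untreated arrays and 0.288 between the ESC lines. Untreated 2B1 and 5C5 were 1 or more apart for 2272 probe sets (6.76%), 980 higher in 2B1 (2.92%) and 1292 higher in 5C5 (3.85%), and the ESC lines for 10.9% of probe sets. Across all 33588 probe sets, the 2i difference and the untreated difference had a correlation of 0.094; the 2i arrays correlated with each other at 0.994 and the untreated arrays at 0.973. At the threshold, Pramel12 lay just inside (1.0043) and Ceacam20 just outside (0.9994) on the 2B1 side, and Dnajc5g (-1.0002) and Enpp3 (-0.9990) did so on the 5C5 side. On the brighter 2i array, 294 members reached the table median; the other 43 were dim.

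Each member was placed by the untreated difference of the same probe set. A member was called outlasting where untreated 2B1 and 5C5 were already 1 or more apart in the same direction, reversed where they were 1 or more apart in the opposite direction, and new otherwise. By this rule 70 members (20.8%) of 63 genes outlasted conversion, 241 (71.5%) of 206 genes were new, and 26 (7.72%) of 25 genes were reversed. Of the 2272 untreated differences, 3.08% were kept, 1.14% were reversed and 79.9% were under 0.5 between the 2i arrays. The kept share was 2.14% (21 probe sets) where 2B1 had been higher and 3.79% (49) where 5C5 had been higher. Over all 33588 probe sets, members higher in 2B1 were 0.372% and members higher in 5C5 were 0.631%.

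**Figure D1:**
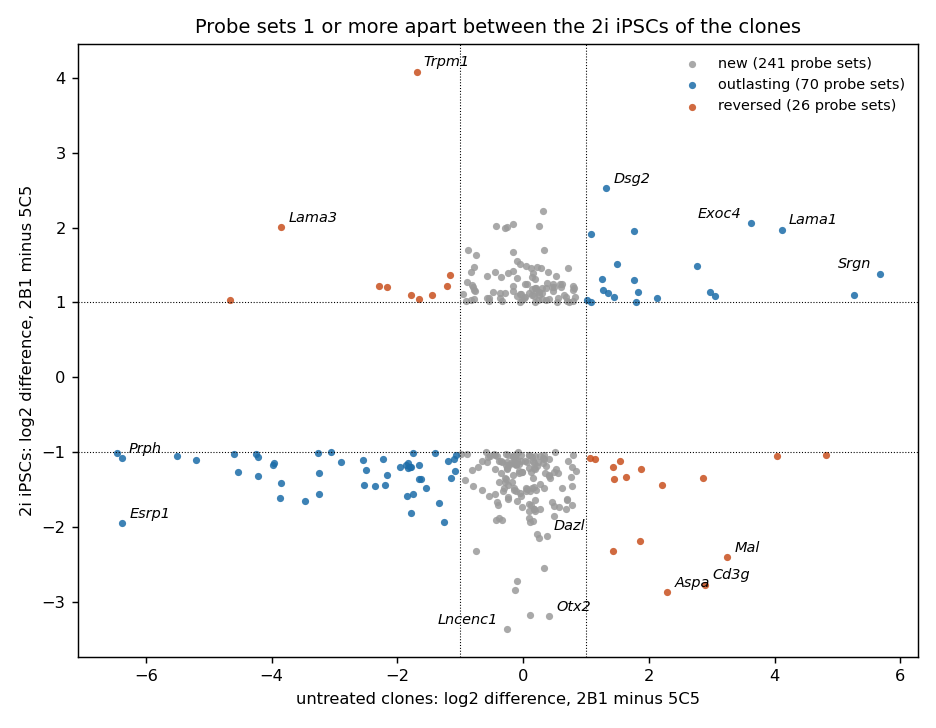
Each point is 1 of the 337 member probe sets, with the log2 difference between the untreated clones on the horizontal axis and between the 2i iPSCs on the vertical axis, both as 2B1 minus 5C5. Dotted lines mark differences of 1; the 241 new members fill the middle column, the 70 outlasting members lie in the lower left and upper right, and the 26 reversed members lie in the other corners.

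Of the 70 differences that outlasted conversion, 49 were higher in 5C5, among them several epithelial genes. In 25 of these 49, untreated 5C5 reached the table median and untreated 2B1 did not, and in 19 both did; for the 21 higher in 2B1, the untreated clone that was higher alone reached it in 10 and both did in 10. They were smaller after conversion: the median size was 1.21 in 2i against 2.23 before it for the 49 members higher in 5C5, and 1.17 against 1.77 for the 21 higher in 2B1. The 2i difference was the smaller of the pair in 44 of 49 and in 15 of 21. Both untreated arrays lay below the table median for 5 and 1 of them.

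Esrp1, an RNA-binding protein that directs epithelial splicing, had the widest 2i difference of the outlasting members higher in 5C5. Its log2 level was 4.38 in untreated 2B1, 10.75 in untreated 5C5, 5.21 in 2i 2B1, 7.16 in 2i 5C5, 5.58 in Nanog-GFP ESCs, 10.12 in EBRTcH3 ESCs and 3.71 in MEFs. The clones were thus -6.37 apart before and -1.95 apart after conversion (2B1 minus 5C5), with 2i 2B1 near the Nanog-GFP ESCs and 2i 5C5 between the ESC lines. Over the 7 transduced 2B1 arrays Esrp1 ranged from 4.65 (Cnot123) to 9.82 (empty vector), with a median of 7.65. The arrays labelled 2B1 with empty vector, Nanog (9.36) and Trim28 (9.09) were nearer to untreated 5C5 than to untreated 2B1, and the Cnot2 array (7.65) lay about midway.

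Other epithelial genes shared this order. Cldn7, a claudin of tight junctions, was at 4.10 and 9.30 in untreated 2B1 and 5C5, 6.48 and 7.60 in 2i, 6.49 and 8.46 in the Nanog-GFP and EBRTcH3 ESCs, and 4.81 in MEFs. Cldn4, another claudin, was at 3.91 and 7.89 untreated, 7.28 and 8.45 in 2i, 9.41 and 10.79 in the ESC lines, and 5.16 in MEFs. St14, the membrane serine protease matriptase, was at 8.01 and 9.86 untreated, 7.60 and 9.19 in 2i, 9.61 and 9.14 in the ESC lines, and 6.02 in MEFs. St14 kept most of its untreated difference (-1.85 before, -1.59 after), while those of Cldn7 (-5.20 to -1.11) and Cldn4 (-3.98 to -1.17) became smaller. Mal2, a membrane protein of epithelial transport, was outlasting too (-4.22 and -1.06) but dim on both 2i arrays.

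Of the 41 measured genes of the epithelial list, 7 had members higher in 5C5 and 1 had a member higher in 2B1. Over all 17404 genes the numbers were 178 and 114. The median 2i difference of the list's probe sets was -0.16, against 0.002 for all probe sets, and their median untreated difference was -1.03. Genes at the centre of epithelial identity were far closer in 2i than before: Cdh1, which encodes E-cadherin, was -4.47 apart untreated and 0.04 apart in 2i, and Epcam, an epithelial adhesion molecule, was -3.18 and then -0.46. The 2i difference of Dsp, desmoplakin of desmosomes, was new: -0.33 untreated and -1.90 in 2i, with levels of 6.55 in 2i 2B1 and 8.45 in 2i 5C5; 1 of its 3 probe sets differed (-0.20). The member higher in 2B1 was 1 of 6 probe sets of Dsg2, a desmosomal cadherin, at 7.01 and 4.49 in 2i (2.53); the other 5 were between -0.18 and 0.29, so the probe sets of this gene disagree.

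Some members encode neuronal intermediate filaments, although the neural list as a whole was not higher in either clone. Nefl, the neurofilament light chain, was at 6.57 and 10.44 in untreated 2B1 and 5C5, 6.54 and 8.16 in 2i, 7.73 and 8.07 in the ESC lines, and 4.31 in MEFs. Its other probe set had a 2i difference of -1.41. Nefh, the heavy chain, was -1.83 apart untreated and -1.22 in 2i. The genes with the widest untreated differences among outlasting members, chosen after their values were seen, were Slc6a15, a transporter of neutral amino acids (-6.47 untreated, -1.01 in 2i), and Prph, the intermediate filament peripherin (-6.38 and -1.08, by 1 of 4 probe sets, the other 3 being dim in 2i). Of the 20 measured genes of the neural list, Nefl was the 1 with members higher in 5C5 and Stmn3, a tubulin regulator, the 1 higher in 2B1 (1.25), and the list's median 2i difference was -0.02. Over all 17404 genes the numbers were 178 and 114.

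Other outlasting members higher in 5C5 had varied roles. Igfbp3, which binds insulin-like growth factors, was at 9.31 and 11.66 in untreated 2B1 and 5C5, 6.00 and 7.45 in 2i, 6.68 and 6.67 in the ESC lines, and 9.39 in MEFs. Hhip, a cell-surface antagonist of Hedgehog ligands, had 3 member probe sets, with 2i differences of -1.03 to -1.44 and untreated differences of -1.07 to -3.24. Rragd, a GTPase that couples amino acids to mTORC1, was at 5.24 and 7.78 untreated, 7.49 and 8.93 in 2i, and 9.18 and 10.61 in the ESC lines. The 3 genes differ in course: Igfbp3 was lower after conversion in both clones, Rragd was higher in both, and Hhip was at or above the table median in 2i 5C5 by 2 of its 3 member probe sets and in 2i 2B1 by 1. Further named members higher in 5C5 were Nt5e, a nucleotidase at the cell surface (-1.26 untreated, -1.94 in 2i, with its other probe sets at -0.36 and 0.12), Col26a1, a collagen (-1.78 and -1.82), Patj, a scaffold of cell polarity (-3.47 and -1.65), and P2rx3, an ATP-gated channel (-3.25 and -1.56).

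Genes higher in 2B1 throughout were fewer. Srgn, the proteoglycan core protein serglycin, was at 11.70 in untreated 2B1, 6.02 in untreated 5C5, 10.18 in 2i 2B1, 8.79 in 2i 5C5, 8.14 in Nanog-GFP ESCs, 4.22 in EBRTcH3 ESCs and 3.98 in MEFs. Both 2i arrays lay above both ESC lines for Srgn, and all 7 transduced 2B1 arrays, from 10.10 to 11.42 with a median of 10.97, were high like untreated 2B1. Lama1, a laminin chain of basement membranes, was at 8.65 and 4.54 untreated, 9.39 and 7.42 in 2i, 7.78 and 8.29 in the ESC lines, and 4.02 in MEFs. Over the transduced 2B1 arrays Lama1 was lowest with Nanog (4.78) and empty vector (5.66) and highest with Cnot123 (8.26). Ctsc, the lysosomal protease cathepsin C, was at 9.94 and 8.17 untreated and 8.99 and 7.69 in 2i. Usp14, a deubiquitinase of the proteasome, was at 8.05 and 6.55 untreated and 8.10 and 6.58 in 2i by 1 of 4 probe sets; the other 3, at higher levels, were between -0.11 and 0.10 in 2i. Ankrd33b had member probe sets with untreated differences of 2.76 and 1.76 and 2i differences of 1.48 and 1.96. Exoc4, a subunit of the exocyst, was 3.62 apart untreated and 2.06 in 2i by 1 probe set, while its other 4 were between -0.04 and 0.33 in 2i. Cenpk, of the inner kinetochore (1.08 and 1.92, with its brightest probe set at 0.34 in 2i), Rapgef3, an exchange factor activated by cyclic AMP (1.25 and 1.32), and Aldh1l1, a folate enzyme (1.27 and 1.17), were the other named members of this kind.

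**Figure D2:**
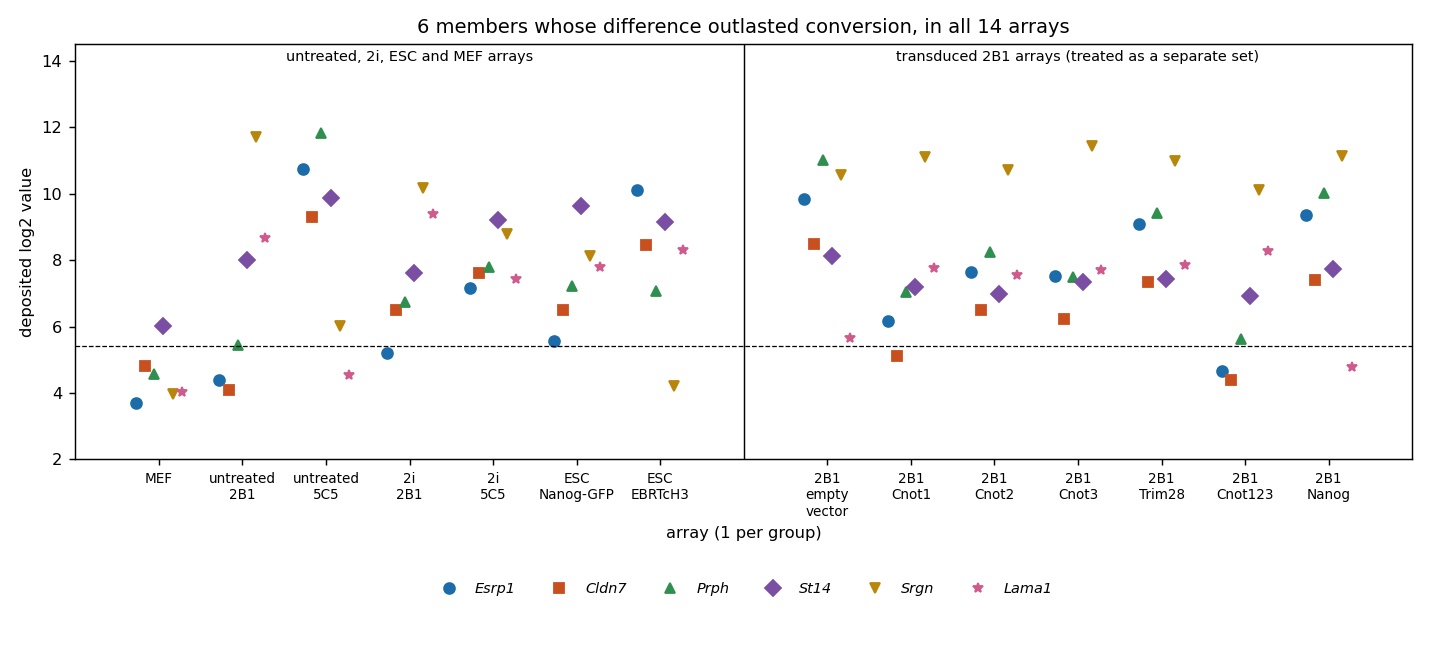
Deposited log2 values of 6 outlasting genes (Prph chosen after its values were seen) on the 7 untreated, 2i, ESC and MEF arrays at left and on the 7 transduced 2B1 arrays at right, 1 point per array; the dashed line is the table median of 5.42. Esrp1, Cldn7, Prph and St14 are higher in 5C5 and Srgn and Lama1 higher in 2B1 in each pair of clone arrays, and the empty vector and Nanog arrays lie nearer to untreated 5C5 for Esrp1, Cldn7, Prph and Lama1, and nearer to untreated 2B1 for Srgn and St14.

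How many members count as outlasting depended on which array stood for partial 2B1. After each array's median difference from untreated 5C5 was removed, untreated 2B1 was 1 or more from untreated 5C5 in the direction of the 2i difference for 69 of the 70 outlasting members. The arrays of Cnot1, Cnot2, Cnot3 and Cnot123 were so for 50 to 56, that of Trim28 for 36, and those of empty vector and Nanog for 22 each. With the empty vector array in place of untreated 2B1, 41 members were outlasting, of which 22 were among the 70 and 19 were not. With the median of the 7 transduced arrays in its place, 68 were outlasting, 48 of them among the 70. Which array represents the cells that went into 2i was not tested.

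**Figure D3:**
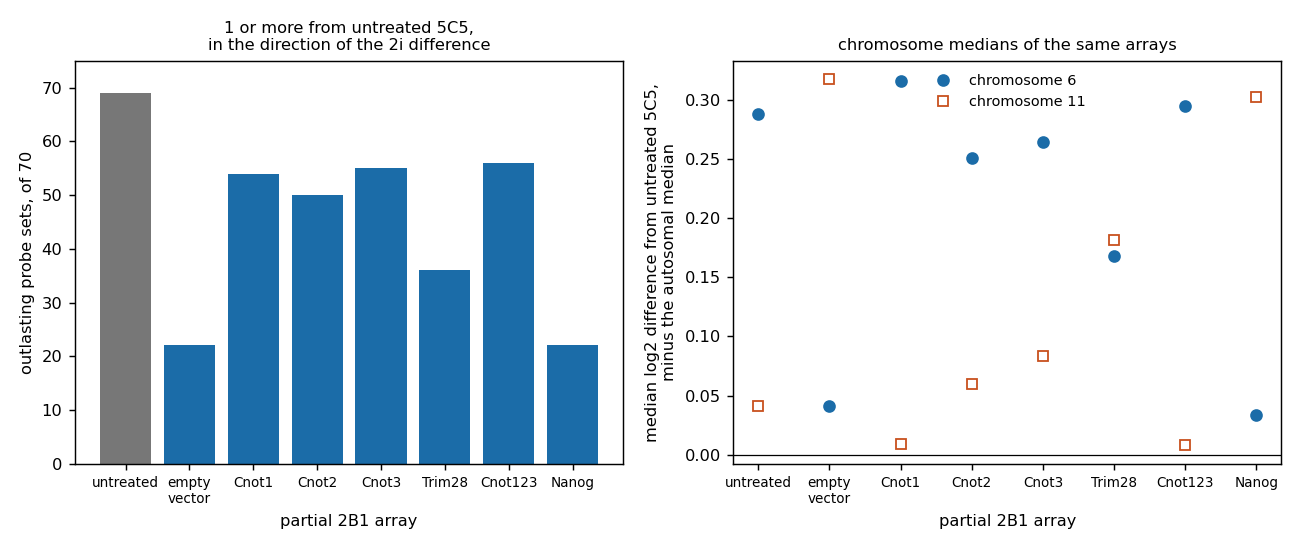
Left, for each partial 2B1 array, the number of the 70 outlasting probe sets that were 1 or more from untreated 5C5 in the direction of the 2i difference; right, the median log2 difference of chromosomes 6 and 11 from untreated 5C5 on the same arrays, with the autosomal median removed. The empty vector and Nanog arrays have the lowest counts (22 each) and the lowest chromosome 6 medians (0.041 and 0.033).

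New differences made up most members, and the largest group among them were probe sets low in both partial clones and higher in 5C5 after conversion. Both untreated arrays lay below the table median for 101 of the 147 new members higher in 5C5 and for 46 of the 94 higher in 2B1; over all probe sets this share was 40.0%. The untreated difference was under 0.5 for 118 of 147 and 61 of 94. Both clones were 1 or more higher in 2i than untreated for 67 new members higher in 5C5 and 33 higher in 2B1, and both were 1 or more lower for 16 and 9. Over all probe sets the shares were 3.92% for both higher and 3.03% for both lower. In 52 and 33, the 2i value was 1 or more above the untreated value in the higher clone alone. Most new members were thus higher in 2i than untreated in both clones, to unequal levels, or in 1 clone. The rule for a new member itself requires the clones to shift unequally, so these counts are a description.

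The widest new differences were those of Lncenc1, Otx2 and Pramel6. Next came Glrp1 (-2.84), D7Ertd128e (-2.72), Cd3d (-2.56) and Art3 (-2.33), which were on none of the gene lists. Glrp1 was at 3.90 and 6.74 in 2i 2B1 and 5C5, and lower in both ESC lines (3.51 and 3.62). Lncenc1, a long noncoding RNA of ESCs, was at 3.21 and 3.47 in untreated 2B1 and 5C5, 5.46 and 8.83 in 2i, 9.20 and 9.65 in the Nanog-GFP and EBRTcH3 ESCs, and 3.67 in MEFs. Otx2, a homeodomain factor of the epiblast leaving the naive state, was at 3.31 and 2.89 untreated, 6.65 and 9.85 in 2i, 8.08 and 9.07 in the ESC lines, and 2.89 in MEFs. Pramel6, of a leucine-rich repeat family expressed in naive cells, was at 3.13 and 3.02 untreated, 6.83 and 10.01 in 2i, 9.99 and 3.21 in the ESC lines, and 3.32 in MEFs. For Lncenc1 and Otx2 the 2i 2B1 array lay below both ESC lines, with 2i differences of -3.37 and -3.20, each from 1 probe set. For Pramel6 (-3.18 and, by its other probe set, -2.09) the ESC lines were themselves far apart. Pramel7, of the same family, was at 6.31 and 7.83 in 2i, 8.84 in Nanog-GFP ESCs and 3.47 in EBRTcH3 ESCs.

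Other pluripotency genes differed less. Of 24 measured genes on the naive pluripotency list, Klf5, a Krüppel-like factor, had the only member (1.41, with 9.05 in 2i 2B1 and 7.64 in 2i 5C5), and another of its probe sets was at 13.52 and 12.81. Over all 17404 genes 292 had members, so 1 gene on this list or on those that follow is no smaller a share. The list's median 2i difference was 0.03, with Nanog at -0.19, Pou5f1 at 0.23 and Sox2 at -0.02. Of 16 genes on the primed and formative list, Otx2 was the only member; the list's median was -0.26, and 25 of its 29 probe sets that reached the table median were below 0, Nodal among them (-0.92). Dnmt3l, the cofactor of the de novo DNA methyltransferases, was the only member of 15 genes on the DNA methylation list, at 9.16 in 2i 2B1 and 10.47 in 2i 5C5 against 10.67 and 12.12 in the ESC lines and 4.26 and 4.42 untreated.

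Of 45 measured genes on the germ cell and meiosis list, 5 had members, all higher in 5C5 and all new. Over all 17404 genes, 178 had members higher in 5C5. The list's median 2i difference was -0.33, against -0.05 untreated. Of its 48 probe sets that reached the table median, 34 were below 0. Their median was -0.41, against 0.006 over all probe sets that reached the table median. The members were Dazl, an RNA-binding protein of germ cells, Tex101, a surface protein of germ cells, Sycp2, of the axial elements of meiotic chromosomes, Smc1b, the meiotic cohesin subunit, and Dmrtb1, a DM-domain factor of spermatogonia. RefSeq promoter sequences (assembly GRCm38.p6, from 250 bases before to 50 after the gene's start, 5′ to 3′ on the gene's strand) are shown for 4 of them because such promoters are where methylation acts on germ cell genes; capitals mark CG dinucleotides, the methylated unit. Dazl lies at chr17:50293571-50293870, Smc1b at chr15:85131908-85132207, Sycp2 at chr2:178407609-178407908 and Tex101 at chr7:24672001-24672300, all on the minus strand.
Dazl: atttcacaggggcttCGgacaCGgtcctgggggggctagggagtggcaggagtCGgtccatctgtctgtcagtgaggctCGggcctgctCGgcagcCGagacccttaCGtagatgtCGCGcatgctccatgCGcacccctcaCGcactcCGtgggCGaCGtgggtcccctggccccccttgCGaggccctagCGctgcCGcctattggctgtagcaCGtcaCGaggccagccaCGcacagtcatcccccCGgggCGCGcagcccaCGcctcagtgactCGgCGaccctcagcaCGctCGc
Smc1b: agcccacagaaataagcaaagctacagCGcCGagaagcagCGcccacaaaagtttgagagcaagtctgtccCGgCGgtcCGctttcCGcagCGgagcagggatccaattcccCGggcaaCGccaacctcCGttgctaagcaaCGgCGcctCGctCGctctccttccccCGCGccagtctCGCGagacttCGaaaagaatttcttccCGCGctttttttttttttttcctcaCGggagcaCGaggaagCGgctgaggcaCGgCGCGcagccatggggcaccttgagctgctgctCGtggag
Sycp2: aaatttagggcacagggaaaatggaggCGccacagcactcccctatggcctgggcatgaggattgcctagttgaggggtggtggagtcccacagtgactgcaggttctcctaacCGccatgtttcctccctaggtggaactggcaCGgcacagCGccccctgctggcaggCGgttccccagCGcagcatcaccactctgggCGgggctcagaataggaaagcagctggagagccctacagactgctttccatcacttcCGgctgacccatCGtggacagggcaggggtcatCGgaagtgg
Tex101: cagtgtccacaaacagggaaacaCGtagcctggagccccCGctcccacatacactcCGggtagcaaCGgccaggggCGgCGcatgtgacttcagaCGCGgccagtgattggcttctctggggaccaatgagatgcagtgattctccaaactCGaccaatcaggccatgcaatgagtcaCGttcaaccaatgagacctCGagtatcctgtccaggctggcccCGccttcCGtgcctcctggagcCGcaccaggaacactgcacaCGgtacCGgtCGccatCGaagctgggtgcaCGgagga

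The Dazl promoter holds 28 CG dinucleotides and that of Smc1b 29, Tex101 has 19 and Sycp2 10; the median over 17351 promoters of 13833 measured genes was 16. As many CG as in Dazl were found in 22.3% of all promoters and as many as in Sycp2 in 65.3%, so the members were not alike in this. Dmrtb1 has 2 listed promoters, with 28 and 9. The motif CACGTG, an E-box that reads the same on both strands and is bound by Max with its partners, was in none of these promoters. It was in 8.71% of all promoters, in 36.7% (18 of 49) of those of the germ cell list and in 8.59% of those of the new members higher in 5C5. These are letter matches within the window only.

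Dazl itself was at 3.39 in untreated 2B1, 3.02 in untreated 5C5, 9.43 in 2i 2B1, 11.55 in 2i 5C5, 10.25 in Nanog-GFP ESCs, 7.08 in EBRTcH3 ESCs and 3.46 in MEFs. Its 2i difference was -2.12, and -1.86 by its other probe set, and all 7 transduced 2B1 arrays were low, from 2.35 to 2.82 with a median of 2.62. Both clones were thus far above their untreated levels, 5C5 above both ESC lines and 2B1 between them. Smc1b was at 4.45 and 4.63 untreated, 7.23 and 8.62 in 2i, 8.20 and 5.92 in the ESC lines, and 5.05 in MEFs. Dmrtb1 was at 5.53 and 5.17 untreated, 6.35 and 7.54 in 2i, 6.26 and 6.31 in the ESC lines, and 5.54 in MEFs. Tex101 and Sycp2 reached the table median in 2i 5C5 and not in 2i 2B1: Tex101 was at 4.29 and 6.44, and Sycp2 at 5.03 and 6.52. Sycp2 was lower in both ESC lines (3.73 and 4.28) than in either 2i array.

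Several further genes of the list lay just short of the threshold in the same direction, among them Mov10l1 (-0.97), Hormad1 (-0.92), Ddx4 (-0.89), Piwil2 (-0.88), Stk31 (-0.84) and Sycp1 (-0.83), which act in meiosis or in piRNA pathways. Stra8 (0.04), Tex15 (-0.10) and Tex19.1 (-0.19) were level, and Sycp3, of the same axial elements as Sycp2, was higher in 2B1 (0.95). Some members outside the list also have known germ cell roles. Those named here were chosen after their values were seen, so they do not show which direction such genes take. Over all members, 178 genes were higher in 5C5 and 114 in 2B1. Higher in 5C5 were Meioc, a meiotic regulator (-1.79), and Tdrd12, of the piRNA pathway (-1.60). So were Terb1 (-1.27), Terb2 (-1.52) and Majin (-1.50), which together join telomeres to the nuclear envelope in meiosis. Terb1, Terb2 and Majin lie on chromosomes 8, 2 and 19, so they do not share a locus. Piwil4, a PIWI protein, was the other way (1.27).

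**Figure D4:**
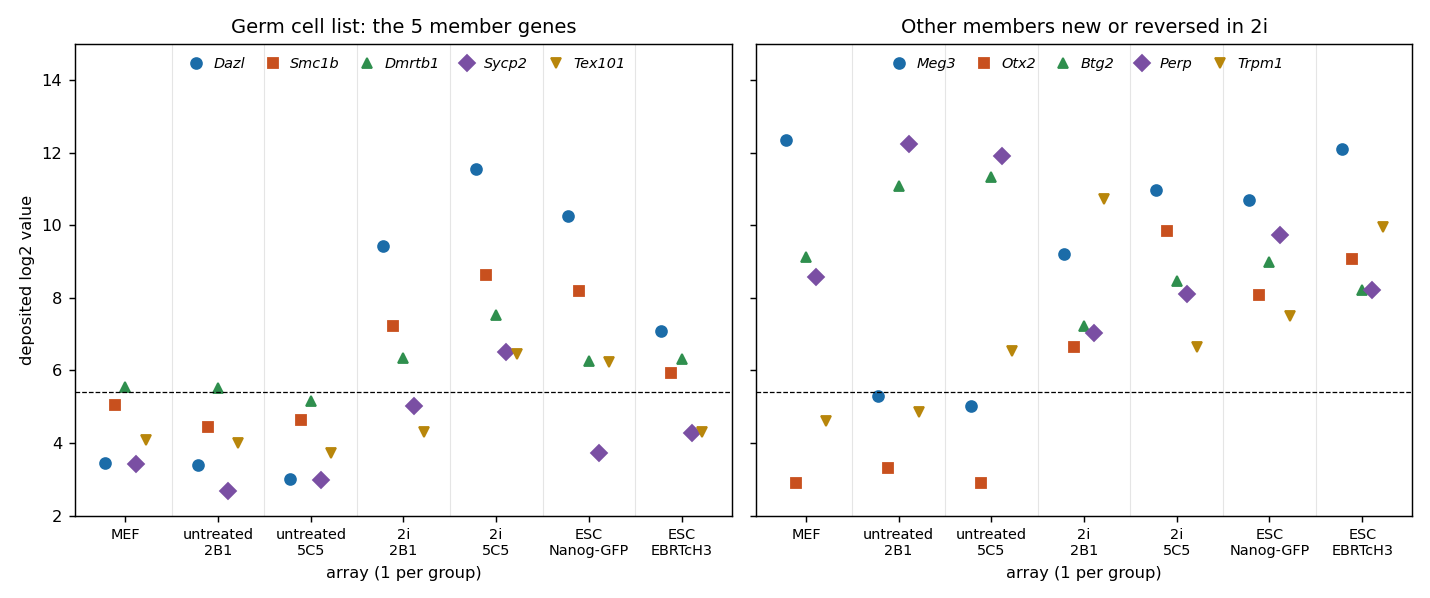
Deposited log2 values, 1 point per array, of the 5 member genes of the germ cell list (left) and of Meg3, Otx2, Btg2, Perp and Trpm1 (right) on 7 arrays; the dashed line is the table median of 5.42, and each gene is shown by its member probe set with the widest 2i difference. All but Trpm1 are higher in 2i 5C5 than in 2i 2B1, the germ cell genes from similar untreated levels.

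The maternally expressed noncoding RNAs of the Dlk1-Dio3 imprinted cluster were lower in 2i 2B1 as a block. Meg3 was at 5.29 and 5.02 in untreated 2B1 and 5C5, 9.21 and 10.97 in 2i, 10.70 and 12.12 in the ESC lines, and 12.37 in MEFs. It had 4 member probe sets, with 2i differences of -1.24 to -1.76. Rian (-0.83) and Mirg (-0.77), from the same cluster, lay below the threshold in the same direction, as did Dlk1, the cluster's paternally expressed coding gene (-0.69). All 14 probe sets of the 4 genes that reached the table median were below 0, with a median of -0.65 over all 19 in 2i and 0.03 untreated. Both clones were well above their untreated Meg3 levels, 2i 5C5 between the ESC lines and 2i 2B1 below both. Of 35 other imprinted genes, Nnat, a small membrane protein of neurons, and Impact, a regulator of translation, had members, both higher in 2B1 (1.34 and 1.01). Members higher in 2B1 stood for 114 of all 17404 genes. The other probe sets of Impact were at -0.64 and 0.25, and the median of the list was -0.07. Among its probe sets that reached the table median, 11 were above 0 and 31 below (median -0.12).

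Genes of the p53 and senescence list were lower in 2i 2B1 by nearly all of their probe sets that reached the table median. Of 15 measured genes, 3 had members, all higher in 5C5, against 178 of all 17404 genes. Of the 25 probe sets that reached the table median, 24 were below 0, and the list's median was -0.62 in 2i against 0.26 untreated. Btg2, an antiproliferative partner of the Ccr4-Not deadenylases, was at 11.09 and 11.34 untreated, 7.24 and 8.47 in 2i, 9.001 and 8.21 in the ESC lines, and 9.12 in MEFs. Perp, a p53 target in desmosomes, was at 12.25 and 11.92 untreated, 7.03 and 8.12 in 2i, 9.73 and 8.22 in the ESC lines, and 8.58 in MEFs. Both were lower in 2i than untreated in both clones, further so in 2B1, whose 2i array lay below both ESC lines. Igfbp3, described above, was the third. Pmaip1 (-0.95), Phlda3 (-0.86), Ccng1 (-0.80), Mdm2 (-0.76) and Cdkn1a (-0.60) were lower in 2i 2B1 without being members, and Cdkn1b (0.18), which is not a classical p53 target, was the 1 above 0.

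Probe sets of endoderm genes were mostly higher in 2i 2B1. On the primitive and visceral endoderm list, 3 of 22 genes had members higher in 2B1 and 1 higher in 5C5. Over all 17404 genes, 114 had members higher in 2B1 and 178 higher in 5C5. Of the 31 probe sets of the list that reached the table median, 29 were above 0, with a median over the list of 0.15. Cubn, the endocytic receptor cubilin of visceral endoderm, was at 5.25 and 6.13 in untreated 2B1 and 5C5, 7.76 and 6.05 in 2i, 4.87 and 4.02 in the ESC lines, and 6.61 in MEFs. Sox17, an endoderm transcription factor, was at 2.82 and 2.92 untreated, 6.69 and 5.36 in 2i, and 3.34 in both ESC lines. Its other probe set gave a smaller difference (0.60), with 5.001 and 5.05 untreated, 6.24 and 5.64 in 2i, and 5.59 and 5.04 in the ESC lines. Both genes were above both ESC lines on both 2i arrays. Lama1, made by this tissue, is described above, and Foxa1, a forkhead factor of later endoderm, was the one higher in 5C5 (-2.89 untreated, -1.13 in 2i). By their widest probe sets Gata4 (0.39), Gata6 (0.40) and Apoe (0.84) were higher in 2B1 short of the threshold; the 3 probe sets of Pdgfra were at 0.01 to 0.18 and the 4 of Dab2 at 0.01 to 0.22.

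Among 13 BMP genes, the ligand Bmp4 (9.21 and 8.20 in 2i) and the targets Id2 (8.34 and 7.14) and Id3 (9.60 and 8.24) had members, all new and higher in 2B1. Members higher in 2B1 stood for 114 of all 17404 genes. Of 19 Wnt genes, the secreted antagonists Sfrp1 and Dkk1 had members higher in 2B1. Dkk1 was at 3.74 and 3.51 untreated and 5.42 and 3.94 in 2i; its other member probe set was dim, at 3.52 and 2.46. The median 2i difference of each of these lists was 0.05; among probe sets that reached the table median, 10 of the BMP list were above 0 and 5 below (median 0.09), and 10 of the Wnt list were above 0 and 11 below (median -0.06). On the LIF list, Klf5 was the only member of 14 genes, with a median of 0.17.

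The new members higher in 2B1 by 2 or more that reached the table median were Ripply3, a transcriptional corepressor (7.12 and 4.90 in 2i), Aqp8, a water channel (6.06 and 4.005), Tgm1, a transglutaminase of keratinocytes (7.95 and 5.94), and Pmel, the fibril protein of melanosomes (8.78 and 6.76). Pmel was at 5.68 and 5.42 in the untreated clones, 7.77 and 11.55 in the ESC lines and 5.27 in MEFs. For Ripply3 the ESC lines were at 4.44 and 7.73, which enclosed both 2i arrays. Aqp8 was above both ESC lines (4.10 and 3.72) in 2i 2B1 alone. Single members of other lists were Myl4, a myosin light chain (1.47), Hoxa9 (-1.14, with its other probe set at -0.04), and Gsc, dim on both 2i arrays (-1.12). The lists of ERK targets (26 genes), trophoblast (15), blood (15), the two-cell stage (6), interferon response (29), glycolysis (29) and cell cycle (26) held no member. Over all probe sets 1.003% were members, so lists of this size can hold none without differing from the rest. The Ccr4-Not list held Btg2 alone of 14 genes.

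A small set of members had changed sides. Trpm1, a cation channel of retinal bipolar cells and melanocytes, had the widest 2i difference of all: its levels were 4.86 in untreated 2B1, 6.55 in untreated 5C5, 10.74 in 2i 2B1, 6.66 in 2i 5C5, 7.51 in Nanog-GFP ESCs, 9.95 in EBRTcH3 ESCs and 4.61 in MEFs. The 2i 2B1 array was the highest of all, and 5C5 was as before. The other 3 Trpm1 probe sets were dim on both 2i arrays, with differences of -0.11 to 0.75. Mal, a proteolipid of membrane rafts, was at 10.44 and 7.19 untreated, 3.76 and 6.17 in 2i, and 4.35 and 3.64 in the ESC lines. Lgals7, a galectin of stratified epithelia, was at 10.87 and 9.01 untreated, 5.35 and 7.54 in 2i, and 6.60 and 5.81 in the ESC lines. For both, expression in 2i was lower in each clone and lower still in 2B1, which had been the higher clone.

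Other reversed genes crossed without such a shared course. Aspa, the enzyme aspartoacylase, was at 9.90 and 7.61 untreated and 6.06 and 8.94 in 2i, so 2B1 was lower and 5C5 higher after conversion. Cd3g, a chain of the T cell receptor complex, was at 6.49 and 3.59 untreated, 3.88 and 6.65 in 2i, and 6.34 and 3.66 in the ESC lines. Lama3, a laminin chain of epithelial basement membrane, was at 6.10 and 9.95 untreated, 9.25 and 7.24 in 2i, and 9.65 and 5.02 in the ESC lines, by 1 of 2 probe sets; the other was dim and level in 2i (0.11). Over the 7 transduced 2B1 arrays Lama3 ranged from 6.46 to 10.65 and Aspa from 8.59 to 10.52. For Lama3 the side that untreated 2B1 takes was therefore not shared by every array labelled 2B1.

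Members higher in 2B1 were most frequent on chromosome 6, where the 2 clones also differed in level as a whole. The median difference over the 901 probe sets of chromosome 6 whose lowest level on the 4 clone arrays reached the table median was 0.213 in 2i and 0.308 untreated. Over all 1925 probe sets of the chromosome, dim ones included, it was 0.095 and 0.126, with 65.0% above 0 in 2i. With the same filter as the first, on the other 18 autosomes it lay between -0.023 and 0.019 in 2i and between -0.052 and 0.061 untreated. The 2i difference was above 0 for 76.7% of the probe sets of chromosome 6 and for 44.8% to 53.7% elsewhere. In 5 equal parts by gene order the chromosome 6 medians were 0.129, 0.219, 0.293, 0.382 and 0.082, while the 90 parts of the other autosomes lay between -0.086 and 0.102.

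Chromosome 6 held 17 members higher in 2B1 and 2 higher in 5C5. The first is 0.883% of its 1925 probe sets, against 0.080% to 0.722% on the other autosomes. They included Exoc4 and Aldh1l1, described above, and, chosen after their values were seen, Mbd4, a DNA glycosylase of mismatched CG sites (8.07 and 7.02 in 2i), Foxp1, a forkhead factor (8.65 and 7.61), and Gstk1, a glutathione transferase (7.54 and 6.33). Most lay close to the threshold: after the median of each chromosome was subtracted, 329 probe sets were members, 320 of them the same, and 3 of the 17 remained. In the transduced arrays the chromosome 6 median against untreated 5C5, with the autosomal median removed, was 0.251 to 0.317 for Cnot1, Cnot2, Cnot3 and Cnot123, 0.168 for Trim28, 0.041 for empty vector and 0.033 for Nanog; for untreated 2B1 it was 0.289. The arrays low on chromosome 6 were high on chromosome 11 (0.318 for empty vector, 0.303 for Nanog and 0.182 for Trim28, against 0.008 to 0.083 for the others). The source of either shift was not tested.

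**Figure D5:**
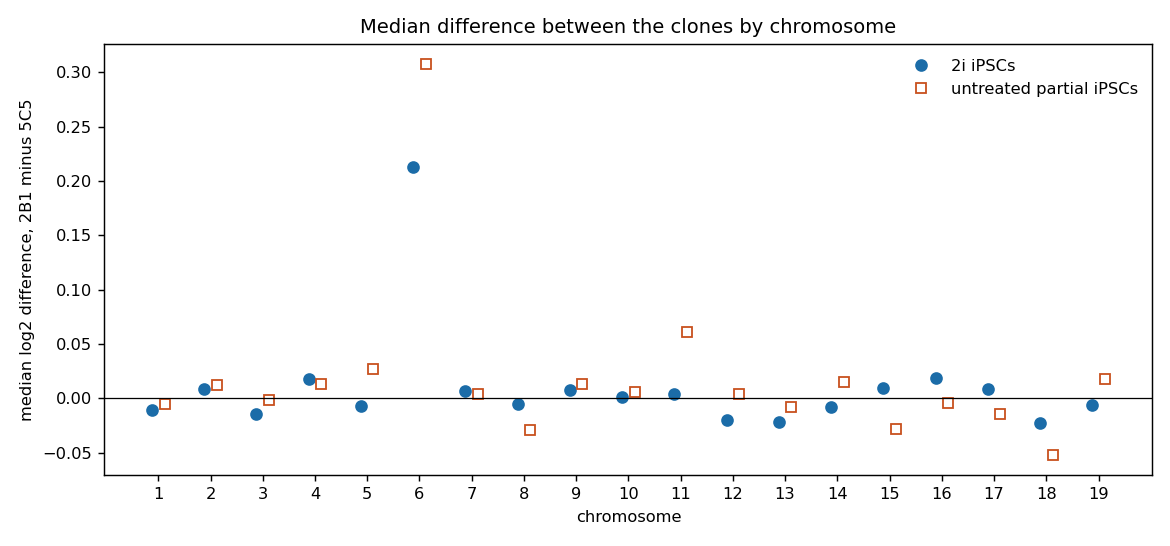
Median log2 difference, 2B1 minus 5C5, of the probe sets of each autosome whose lowest level on the 4 clone arrays reached the table median, for the 2i iPSCs (filled circles) and the untreated partial iPSCs (open squares). Chromosome 6 stands at 0.213 and 0.308, and the other 18 autosomes lie between -0.052 and 0.061.

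Set against ESCs, neither clone was the nearer one throughout. For the new members higher in 5C5, 2i 2B1 was nearer to the mean of the ESC lines for 74 and 2i 5C5 for 73; for those higher in 2B1 the numbers were 40 and 54. Among outlasting members 5C5 was nearer for 29 of the 49 higher in 5C5 and for 15 of the 21 higher in 2B1. Members were also places where the ESC lines disagreed: 157 of 337 (46.6%) were 1 or more apart between the lines, against 10.9% of all probe sets, and the share was 47.1% for outlasting and 46.9% for new members. Both 2i arrays lay above both ESC lines for 45 members and below both for 44.

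Agreement between probe sets of a gene bears on how far a member speaks for its gene. Of the 292 member genes, 129 had a single probe set and 36 had at least 2 member probe sets, and no gene had members in both directions. Of 158 other probe sets of member genes that reached the table median, 136 had the sign of the member, 87 were also at least 0.5 apart, and 2 were at least 0.5 apart in the opposite direction. On the X chromosome, outside the rule, 40 of 1127 probe sets were 1 or more apart in 2i.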

How the data were processed

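The deposited values are log2 probe set summaries, made by the authors with RMA and the affy package, per the submitters' processing notes; their versions and settings were not given in the sources used here. As a method, RMA corrects background, makes the arrays' distributions alike by quantile normalization and summarises the probes of a probe set. Array means were 6.09 for the 7 untreated, 2i, ESC and MEF arrays and 5.87 to 5.88 for the 7 transduced arrays, which were treated as normalized separately; no test was made across or within the sets. Low values are mostly background; 1 array per condition limits the precision.

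Of 45101 probe sets, 34945 had 1 gene symbol in the platform annotation, 932 had several, 9160 had none and 64 were controls. RefSeq's genes (GRCm38.p6) held the identifiers of 34741, and gave names, chromosomes and gene order. Differences were taken with python 3.11.15, pandas 2.3.3 and numpy 2.4.6. The code that assigns the classes was run on simulated data with planted differences well above the threshold. That checks the code only and not the classes of these data. Named genes were Dazl and Esrp1, and the 12 genes with the widest 2i difference in each direction among members reaching the table median. Up to 10 such genes per class and direction, every member on a gene list, and genes with 3 or more member probe sets were added. Those not described above were all new. Higher in 2B1 were Slc15a1 (1.99), Ndrg2 (1.70), Ceacam1 (1.64), Matn3 (1.55), Clvs1 (1.52) and Wdfy1 (1.39), the other probe sets of Matn3 and Clvs1 being at 0.08 to 0.12. Higher in 5C5 were Erc2 (-1.92), Ddit4l (-1.77), Mmrn2 (-1.33) and Dpp4 (-1.28). Members and the 27 lists (633 symbols) were chosen with earlier results of these data known. Alternatives were array centring, quantile normalization, other thresholds, 1 probe set per gene, and those added after the data were seen.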

Additional observations from a re-analysis of the deposited data

Results flagged for a closer look

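For 26 member probe sets the 2i difference had the opposite sign to an untreated difference of at least 1. Such a change of sign between conditions is what singled them out; with 1 array per clone and condition it was not tested. The 17 named genes among them fall into those that moved to the 5C5 side and those that moved to the 2B1 side, and differences are 2B1 minus 5C5.

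Now higher in 5C5 were Aspa (-2.87 in 2i, 2.29 untreated), Cd3g (-2.78, from 2.89), Mal (-2.40, from 3.25), Gm6958 (-2.33, from 1.42) and Lgals7 (-2.19, from 1.85). Smaller 2i differences were those of Slc13a5, a citrate transporter (-1.44, from 2.21), Mypn, a protein of muscle sarcomeres (-1.37, from 1.44), Slc7a2, a transporter of cationic amino acids (-1.34, from 2.86), Myrip, which links melanosomes to myosin (-1.33, from 1.64), and Tspan2, a tetraspanin (-1.22, from 1.88). Of these, Aspa, Cd3g, Slc13a5, Slc7a2, Myrip and Tspan2 were 1 or more lower in 2i than untreated in 2B1 and 1 or more higher in 5C5. The untreated side was not shared by every array labelled 2B1: the 7 transduced arrays had Slc7a2 at 3.42 to 4.27, near untreated 5C5 (4.22) rather than untreated 2B1 (7.08). Mypn was at 3.45 to 4.71 on them, against 3.97 in untreated 5C5 and 5.41 in untreated 2B1. The Cnot1 array (4.71) was slightly nearer to untreated 2B1 for Mypn, and the others were nearer to untreated 5C5. These are deposited values, and the transduced arrays had lower means as a set.

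Now higher in 2B1 were Trpm1 (4.08, from -1.69), Lama3 (2.01, from -3.85), Sfrp1 (1.37, from -1.16), Fah, an enzyme of tyrosine breakdown (1.22, from -1.21), Crybg2 (1.20, from -2.17), Prxl2a (1.10, from -1.78) and Tafa4 (1.10, from -1.46). Tafa4 ranged from 4.53 to 8.78 over the transduced arrays, against 4.52 in untreated 2B1 and 5.98 in untreated 5C5. Fah was lower in 2i than untreated in both clones, by more in 5C5. Sfrp1 had a further member probe set that was new (1.03) and 3 others between 0.09 and 0.70.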

How the results depend on the processing

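Of 66 counts recomputed under alternatives, 50 stayed within 1.5 times. All 166 values of named genes kept their sign and stayed at 1 or more under array centring and quantile normalization. Centring changed a 2i difference by at most 0.0083 and quantile normalization a member's by at most 0.0824. The same arrays were reused, so this is no check of the differences themselves. With 1 probe set per gene there were 72 members higher in 2B1, 156 new members, 1340 untreated differences and 8 members on chromosome 6 higher in 2B1. With a threshold of 1.5 there were 83 members (20 higher in 2B1, 63 higher in 5C5), of which 15 outlasted, 61 were new and 7 reversed, with 3 on the germ cell list and 1 on chromosome 6. With an untreated threshold of 0.5, 58 members were reversed and 7457 probe sets differed between the untreated clones. Alternatives chosen after seeing the data gave 3 chromosome 6 members once chromosome medians were subtracted, and 41 outlasting members with the empty vector array in place of untreated 2B1. No paired analysis was possible because the labels carry no replicate numbers and each clone and condition has 1 array. Levels near the background, where 43 members lie, limit what their differences show.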

Other observations

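The sterol synthesis list had 32 of 35 probe sets that reached the table median above 0, with a median 2i difference of 0.37 over its 19 genes and 0.25 untreated. Fdps (0.90), Idi1 (0.75) and Mvd (0.71), enzymes of the mevalonate pathway, were the widest, all higher in 2B1, while Sqle (-0.16) and Fasn (-0.10) were level. The amino acid stress list ran the other way, with a median of -0.25 in 2i and -0.25 untreated; Stc2 (-0.79), Atf5 (-0.73) and Asns (-0.45) were higher in 5C5. Over all autosomal probe sets the median was 0.002.

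Some members were neighbours, counted as member genes at most 5 places apart in the order of measured genes. There were 29 such runs with 64 genes, 19 of them in 1 direction, and 5 held 3 or more genes. Members stood for 292 of 17404 genes, 178 higher in 5C5 and 114 higher in 2B1. How many runs such numbers give without any grouping was not worked out, so the counts are a description. The longest, with 4 genes, was on chromosome 18: Tmem241, Riok3, Lama3 and Impact, all higher in 2i 2B1. Tmem241 was at 9.20 and 6.14 in untreated 2B1 and 5C5 and at 5.97 and 4.89 in 2i; Riok3, a protein kinase, was at 10.89 and 7.92 and then at 9.76 and 8.62. Riok3, Impact and Tmem241 were outlasting by 1 probe set each. Their other probe sets disagreed in 2i: 3 of Riok3 were between -0.42 and -0.23, those of Tmem241 at 0.56 and -0.28, and those of Impact at -0.64 and 0.25. The other Lama3 probe set was at 0.11. The 4 genes were chosen for naming after their values were seen, except Lama3 and Impact. On chromosome 9 the adjacent T cell receptor genes Cd3g (3.88 and 6.65 in 2i) and Cd3d (5.05 and 7.61) were both higher in 5C5, and in both the Nanog-GFP ESCs (6.34 and 7.42) were above the EBRTcH3 ESCs (3.66 and 5.01). On chromosome 13 Fbp1 and Fbp2, which encode fructose bisphosphatases of gluconeogenesis, were both higher in 2i 5C5 (-1.70 and -1.09).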
